A study of Mus musculus with 9 samples.

Results

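Chemokine receptors were examined in CD4+ T cells (helper T lymphocytes) that had been taken from male C57BL/6 mice, with lymph node as the tissue. The 9 receptor genes Ccr2, Ccr4, Ccr6, Ccr7, Ccr8, Ccr9, Cxcr3, Cxcr4 and Cxcr5 were taken by symbol from a table of 39017 genes. All 9 had an Ensembl ID in the table, and all 9 passed the filter on low counts that left 14693 genes to test. RNA-seq read counts came from 9 samples. Each sample carried a floxed allele of Kdm6a, an X-linked gene for a demethylase of histone H3 lysine 27, and, being male, no other copy of it. CD4-Cre was absent from the 5 WT samples, which are replicates 1, 3, 4, 5 and 9. The 4 cKO samples, replicates 2, 6, 7 and 8, carried 1 copy of CD4-Cre, which deletes floxed DNA in cells that have used the Cd4 promoter. The labels give neither age, treatment nor time in culture, do not say whether samples came from separate mice, and mention no stimulation, although the table's name contains "stim".

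Chemokine receptors are G protein-coupled receptors that steer cells along gradients of small secreted proteins, the chemokines. A T cell's receptors help to decide whether it enters a lymph node, follows a B cell into a follicle, or leaves for skin, gut or an inflamed site. Ligand binding activates Gi proteins, whose beta-gamma subunits signal through PI3K gamma and Rac to the actin cytoskeleton, and receptor kinases, arrestins and RGS proteins then end the signal. Helper subsets are commonly told apart by these receptors, with Cxcr3 on Th1 cells, Ccr6 on Th17 cells, Ccr4 and Ccr8 on Th2 and regulatory T cells, and Cxcr5 on follicular helper cells.

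Total counts lay between 21482927 and 26387488 across WT libraries, and between 20587482 and 23820732 across cKO libraries. Kdm6a was at 62.7 ± 1.59 CPM over the WT samples (SD, n = 5). It stood lower, at 42.7 ± 1.48 CPM, over the cKO samples (SD, n = 4), and the groups did not overlap. The counts are per gene, so the part of Kdm6a that the remaining reads came from was not tested. CPM is the usual depth-scaled count, here on library totals adjusted by TMM. The summed level of the 7 T cell genes Cd3d, Cd3e, Cd3g, Trac, Cd4, Lck and Cd28 ran from 2748 to 2969 CPM across WT samples and 2726 to 2927 across cKO samples. Of these 7, 3 were called lower in edgeR (Lck at -0.20, Cd3g at -0.23 and Cd3d at -0.19) and 1 higher (Cd4 at 0.13, adjusted p = 0.0480), a call that Cd4 lost in 8 of 18 alternatives. The share of counts from mitochondrial genes was 2.38% ± 0.0572 over the WT samples (SD, n = 5) against 2.59% ± 0.138 over the cKO samples (SD, n = 4). Its part in the differences below was not tested.

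Of the 9 receptors, 1 passed edgeR's quasi-likelihood test at an adjusted p below 0.05. That was Ccr4, the receptor for CCL17 and CCL22, which was lower in cKO. Across all genes tested, 15.8% passed, 7.0% higher and 8.82% lower, so the receptors' count of 1 in 9 is near the background and says nothing particular about them. At an unadjusted p below 0.05 stood 6 receptors, 4 lower (Ccr9, Ccr2, Cxcr3 and Ccr4) and 2 higher (Cxcr4 and Ccr7), against 31.1% of all genes. DESeq2 called 3 lower (Ccr4, Ccr2 and Ccr9) and 1 higher (Cxcr4), with 16.6% of its genes called. The median log2 fold change of the receptors was -0.05, and that of all genes tested was 0.0012.

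**Figure D1:**
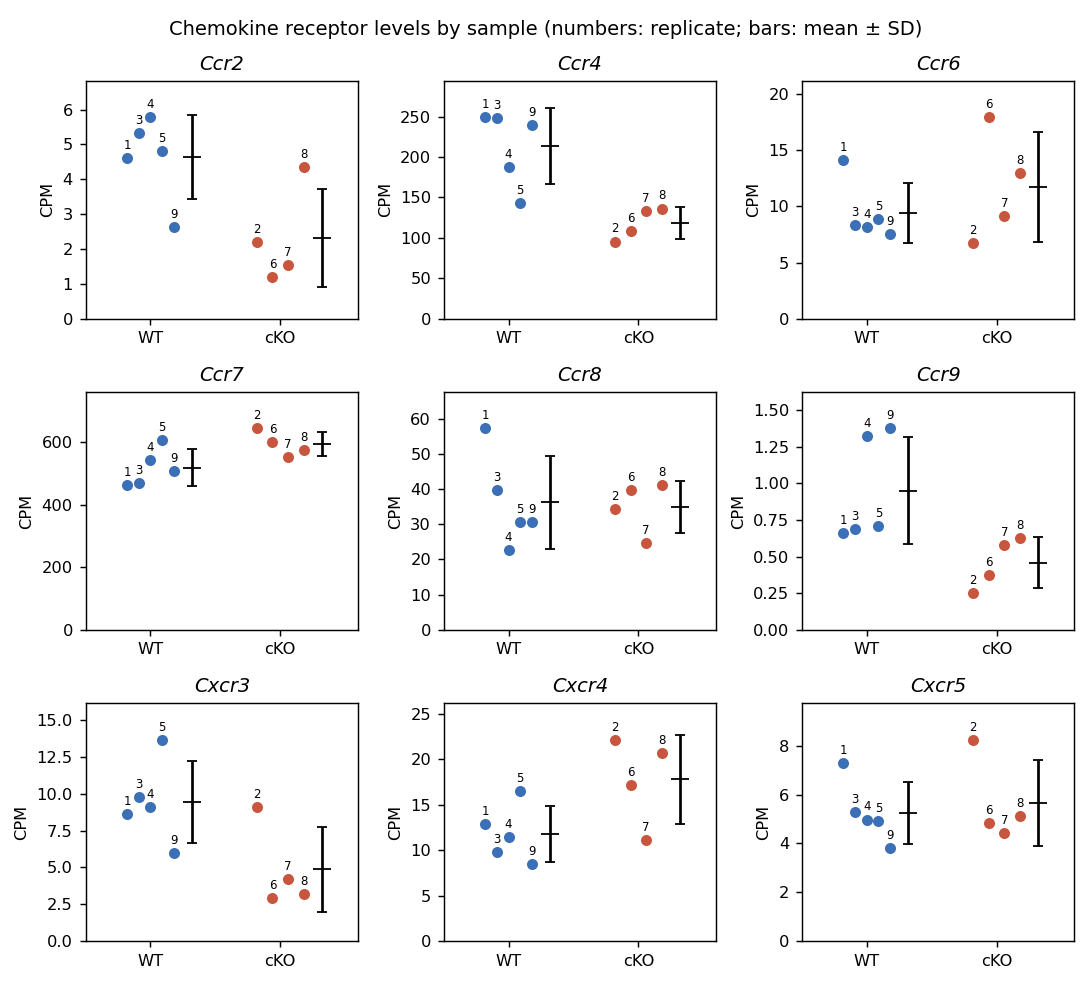
Level of each receptor in CPM (vertical axes, linear from 0) in the 5 WT and 4 cKO samples. Points are samples with their replicate number, and bars are the mean ± SD. Ccr4 and Ccr9 are the receptors whose groups do not overlap.

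Ccr4 guides Th2 and regulatory T cells, and skin-homing T cells in general. It lies on the minus strand of chromosome 9 from 114490316 to 114504916 (mm10, GENCODE M21). Ccr4 was at 249, 249, 188, 144 and 239 CPM in WT 1, 3, 4, 5 and 9. It was at 95.4, 109, 133 and 136 CPM in cKO 2, 6, 7 and 8. WT 5 was the lowest WT sample and lay just above the highest cKO sample, so the groups did not overlap, as was so for 15.9% of all genes tested. The mean was 214 ± 46.6 CPM over the WT samples (SD, n = 5) against 118 ± 19.5 CPM over the cKO samples (SD, n = 4). Ccr4 fell by 0.85 on the log2 scale (SE 0.16, 95% confidence interval -1.21 to -0.50, edgeR adjusted p = 0.00638), which is 44.6% lower. It passed under all 18 other settings tried, with log2 fold changes from -0.97 to -0.76 and adjusted p up to 0.0240. Bulk RNA does not tell fewer cells of a type from less RNA per cell, here or for any receptor below.

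Ccr8, the receptor for CCL1 and CCL8 in mice, shares much of its cell range with Ccr4. In WT 1, 3, 4, 5 and 9 it was at 57.2, 39.9, 22.8, 30.5 and 30.6 CPM. In cKO 2, 6, 7 and 8 it was at 34.2, 39.7, 24.6 and 41.1 CPM, within the span of the WT samples. The log2 difference was -0.05 (SE 0.23, 95% confidence interval -0.56 to 0.46, edgeR adjusted p = 0.903), a range that leaves room for changes from 0.676-fold to 1.37-fold. Its sign rested on single samples, with 0.18 without WT 1 and 0.08 without cKO 7. Whether Ccr4 and Ccr8 differed in their response was not tested.

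Foxp3, the factor that defines regulatory T cells, was at 103 ± 11.4 CPM over the WT samples (SD, n = 5) against 102 ± 25.5 CPM over the cKO samples (SD, n = 4) (edgeR adjusted p = 0.953). Gata3, the Th2 factor, was at 79.1 and 73.9 CPM (adjusted p = 0.410). Of 9 regulatory T cell genes other than receptors, 1 rose and 3 fell, with 3 whose groups did not overlap, against 15.8% called and 15.9% not overlapping among all genes. Ikzf2 (Helios) rose by 0.46, and Capg, an actin-capping protein, was at -0.80, Il2ra at -0.31 and the integrin chain gene Itgae at -0.88. The summed level of the 9 ran from 4131 to 4757 CPM across WT samples and 3429 to 4172 across cKO samples, mostly Il2ra, which activation also induces.

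Ccr7 was the most abundant of the receptors. It binds CCL19 and CCL21 and brings naive and central memory T cells into the lymph node and its T cell zone. WT 1, 3, 4, 5 and 9 held 463, 468, 544, 605 and 507 CPM. The cKO samples 2, 6, 7 and 8 held 644, 600.1, 553 and 576 CPM. All 4 cKO samples lay above 4 of the 5 WT samples, and WT 5 lay among them. The mean was 517 ± 59.2 CPM over the WT samples (SD, n = 5) against 593 ± 38.7 CPM over the cKO samples (SD, n = 4), a log2 difference of 0.20 (SE 0.08, 95% confidence interval 0.03 to 0.36) that did not pass (edgeR unadjusted p = 0.0247, adjusted p = 0.104). Without WT 5 it passed, at 0.26 (adjusted p = 0.0226).

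Within each genotype the samples ranked by Ccr4 stood in nearly the reverse order by Ccr7. In WT, the samples from highest to lowest Ccr4 were 1, 3, 9, 4 and 5, and this was exactly their order from lowest to highest Ccr7. In cKO, the order from highest to lowest Ccr4 was 8, 7, 6 and 2, and 8 and 7 changed places in the order by Ccr7. Per length of exon, Ccr7 was from 2.90 to 6.59 times as abundant as Ccr4 in WT and from 6.51 to 10.5 times in cKO, overlapping where WT 5 exceeded cKO 7. This pair was singled out after its values were seen. Pearson's r of log2 CPM, taken over deviations from each group's mean, was -0.957 for it (n = 9 samples). That was the lowest r among all pairs of the 9 receptors, so the pair is an extreme picked from many. With 5 and 4 samples a group, no correlation within a genotype was tested for significance.

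**Figure D2:**
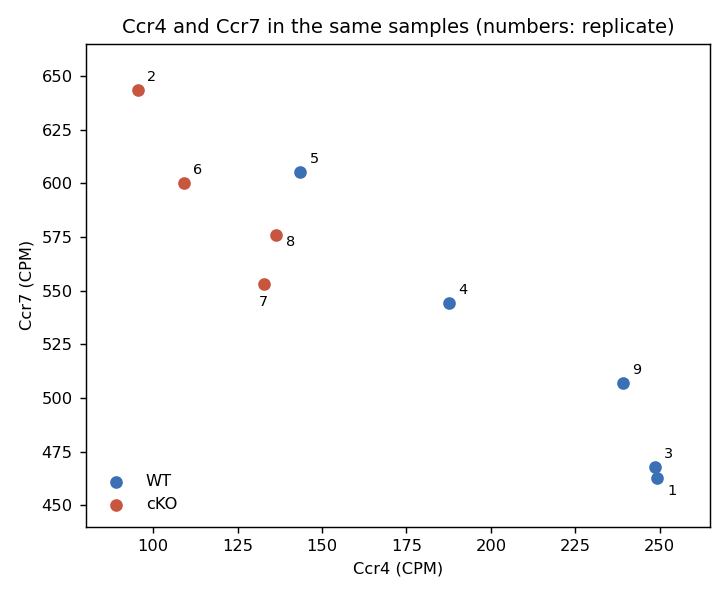
Ccr4 (horizontal axis, CPM) against Ccr7 (vertical axis, CPM) in the same samples, with axes that do not start at 0. Numbers are replicates. Within each genotype the samples stand in nearly the reverse order by Ccr7 as by Ccr4, and WT 5 lies beside cKO 8.

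Cxcr4, the receptor for CXCL12, retains lymphocytes in bone marrow and acts in many tissues. In WT 1, 3, 4, 5 and 9 its level was 12.8, 9.79, 11.4, 16.5 and 8.51 CPM. In cKO 2, 6, 7 and 8 it was 22.2, 17.2, 11.1 and 20.7 CPM. Of the cKO samples, 3 were above every WT sample and cKO 7 lay among the WT samples. Cxcr4 differed by 0.60 on the log2 scale (SE 0.21, 95% confidence interval 0.14 to 1.06, edgeR unadjusted p = 0.0158, adjusted p = 0.0784). It passed in DESeq2 (adjusted p = 0.0301), with no count filter (0.0451), and without WT 5 (0.0350) or cKO 7 (0.0227).

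Cxcr5 is the receptor for CXCL13, which draws cells into B cell follicles. It ran from 3.82 CPM in WT 9 to 7.29 CPM in WT 1, and from 4.42 CPM in cKO 7 to 8.27 CPM in cKO 2. The 2 highest samples came from different genotypes, and the other 7 lay between 3.82 and 5.28 CPM. The log2 difference was 0.11 (SE 0.21, 95% confidence interval -0.35 to 0.57, edgeR adjusted p = 0.761) and was -0.13 without cKO 2. In the annotation the 3′ end of Cxcr5 overlaps Bcl9l on the other strand, at 52.1 CPM in WT against 42.1 in cKO, and although the library kit kept strand, the strand setting of the counting is unknown here. Bcl6, the factor of follicular helper cells, was at 4.61 and 4.78 CPM (adjusted p = 0.809). Of 7 tested follicular helper genes other than receptors, 0 were called in edgeR, with 1 higher and 0 lower at an unadjusted p below 0.05 and 0 called by DESeq2.

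Cxcr3, the receptor for the interferon-induced chemokines CXCL9, CXCL10 and CXCL11, marks Th1 cells. Like Kdm6a it is X-linked, on the minus strand of chromosome X from 101731535 to 101734269. WT 1, 3, 4, 5 and 9 held 8.6, 9.79, 9.13, 13.7 and 5.96 CPM. The cKO samples 2, 6, 7 and 8 held 9.11, 2.94, 4.23 and 3.18 CPM. Of the cKO samples, 3 were below every WT sample, and cKO 2 lay among them. The log2 difference was -0.94 (SE 0.32, 95% confidence interval -1.65 to -0.23, edgeR unadjusted p = 0.0137, adjusted p = 0.0716). Without cKO 2 it was -1.45 (adjusted p = 0.00463). It also passed in limma-voom (adjusted p = 0.0491), in limma-voom with sample quality weights (0.0137), with 1 surrogate variable (0.0360) and with no count filter (0.0361), while DESeq2 did not call it.

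Tbx21, which encodes the Th1 factor T-bet, was at 60.6, 35.8, 15.5, 53.5 and 10.7 CPM in WT 1, 3, 4, 5 and 9. In cKO 2, 6, 7 and 8 it was at 89.6, 102, 46.4 and 49.3 CPM, where Cxcr3 was lower in 3 of 4 samples. Its log2 difference was 1.03 (SE 0.44, edgeR adjusted p = 0.134), and it passed with 1 surrogate variable at 0.56 (adjusted p = 0.0341). Of 7 tested Th1 genes other than receptors, 0 rose and 2 fell, Il18r1 at -1.09 and Stat4 at -0.36, against 8.82% called lower among all genes. Stat4 missed the threshold when WT 3, 4 or 5 or cKO 6, 7 or 8 was left out, which left 1 lower gene in this list.

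Ccr6, the receptor for CCL20, marks Th17 cells. In WT 1, 3, 4, 5 and 9 it was at 14.1, 8.33, 8.20, 8.88 and 7.52 CPM. In cKO 2, 6, 7 and 8 it was at 6.75, 17.9, 9.12 and 13 CPM. WT 1 stood far above the other WT samples, and cKO 2 was the lowest of all 9. The log2 difference was 0.31 (SE 0.26, 95% confidence interval -0.26 to 0.89, edgeR adjusted p = 0.454), between 0.03 without cKO 6 and 0.51 without WT 1. Of 5 tested Th17 genes other than receptors, 2 fell, the cytokine receptor genes Il23r at -1.28 and Il1r1 at -1.63 (8.82% of all genes were called lower), and 0 rose at adjusted or unadjusted p in edgeR or in DESeq2. Without cKO 6, 1 of them fell.

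Ccr2 and Ccr9 were the least abundant receptors. Ccr2 binds CCL2, CCL7 and CCL12 and serves monocytes and effector T cells. It was at 4.61, 5.33, 5.78, 4.82 and 2.63 CPM in WT 1, 3, 4, 5 and 9. It was at 2.19, 1.2, 1.54 and 4.34 CPM in cKO 2, 6, 7 and 8. WT 9 was the lowest WT sample, and cKO 8 lay between it and the rest of WT. For Ccr2 the log2 difference was -0.99 (SE 0.33, 95% confidence interval -1.73 to -0.26, edgeR unadjusted p = 0.0121, adjusted p = 0.0660). Without cKO 8 it was -1.49 (adjusted p = 0.0118), and without WT 9 it was -1.15 (adjusted p = 0.0397). DESeq2 (adjusted p = 0.0190) and edgeR with no count filter (0.0363) called it.

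Ccr9, the receptor for CCL25, directs T cells to the small intestine. It was at 0.659, 0.687, 1.32, 0.708 and 1.37 CPM in WT 1, 3, 4, 5 and 9. It was at 0.253, 0.373, 0.576 and 0.626 CPM in cKO 2, 6, 7 and 8. The groups did not overlap, but these values stand for 15 to 36 counts in WT and 6 to 14 counts in cKO. For Ccr9 it was -1.07 on the log2 scale (SE 0.34, 95% confidence interval -1.83 to -0.31, edgeR unadjusted p = 0.00965, adjusted p = 0.0571). It passed in DESeq2 (adjusted p = 0.0471) and without WT 1 (0.0345). The annotated Ccr9 gene, on chromosome 9 from 123678439 to 123784330, overlaps Lztfl1 and the RNA gene Gm17200, so its counts and its length of 10260 bases are uncertain. It overlaps 6 genes in all, of which 3 were tested. Lztfl1 and Gm17200 rose by 0.26 and 0.41, and Gm10052, the most abundant, was at 59.2 CPM in WT against 63.5 in cKO and was not called. Of the untested genes AC165425.1 was at 0.262 CPM in WT against 0.101 in cKO, from 2 to 12 and 0 to 4 counts, and its groups overlapped. Slc6a20a was at 0.0172 CPM in WT against 0.0104 in cKO, and Gm17020 at 0.0171 against 0.0416.

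**Figure D3:**
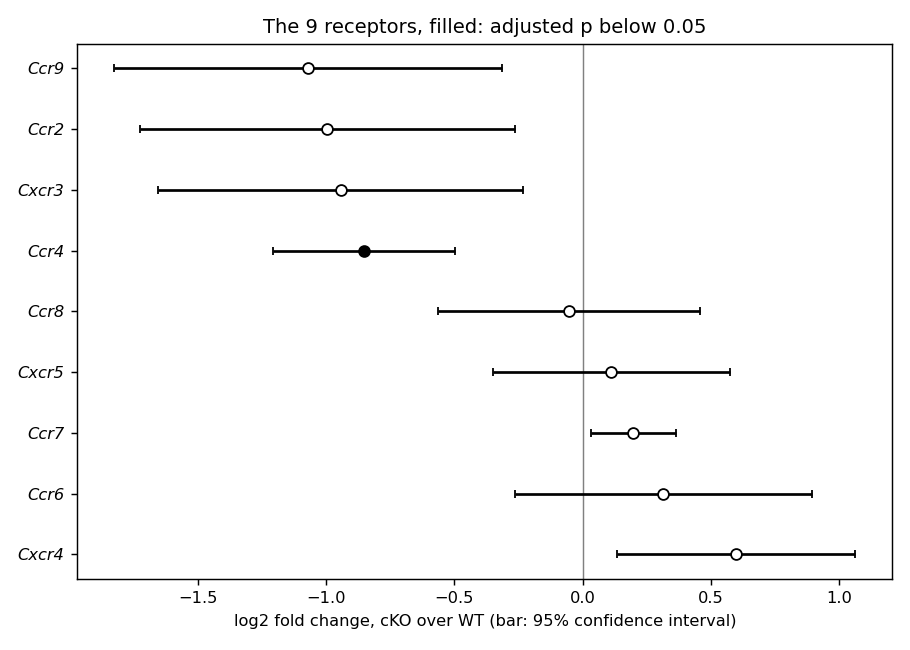
Log2 fold change of cKO over WT (horizontal axis) with 95% confidence intervals for the 9 receptors. The filled point, Ccr4, passed adjusted p 0.05.

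Levels of different receptors can be compared per kilobase of exon. Ccr7 stood at 262 CPM per kb ± 29.95 (SD, n = 5) in WT, Ccr4 at 69.1 ± 15.1 and Ccr8 at 30.8 ± 11.3. Cxcr4 followed at 6.54, Cxcr3 at 5.45, Ccr6 at 4.06, Cxcr5 at 1.58, Ccr2 at 0.685 and Ccr9 at 0.0926 CPM per kb. The WT samples overlapped between the neighbours Ccr4 and Ccr8, Cxcr4 and Cxcr3, and Cxcr3 and Ccr6, and between no other neighbours. In cKO, Ccr7 stood at 299.9 CPM per kb, Ccr4 at 38.3 and Ccr8 at 29.7, and Cxcr3 (2.81) stood below Ccr6 (5.04). Ccr7 made up 68.9% of the summed level per kb of the 9 receptors in WT and 77.4% in cKO, and Ccr4 18.2% and 9.87%.

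**Figure D4:**
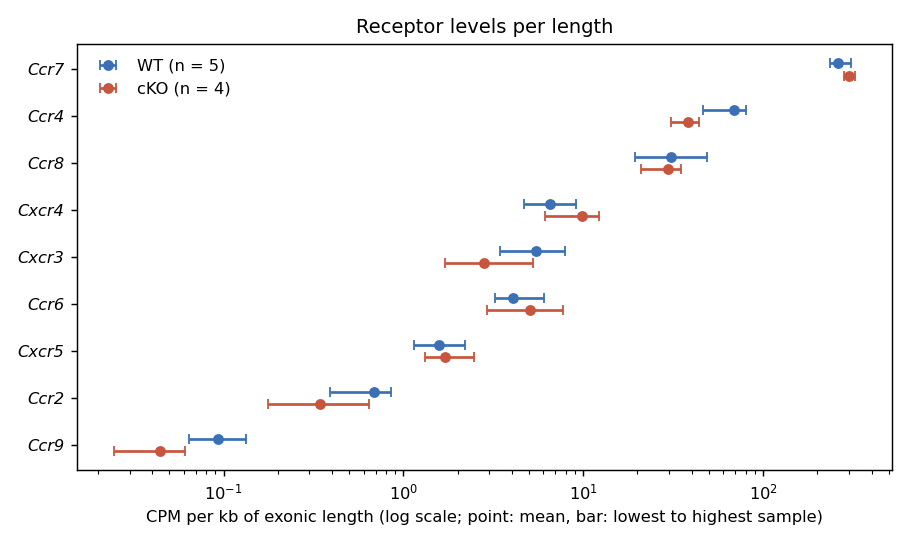
Level of each receptor in CPM per kb of exonic length (horizontal axis, log scale) in WT and cKO. Points are means and bars run from the lowest to the highest sample. Ccr7, Ccr4 and Ccr8 stand above the other 6.

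The bases before the RefSeq start of Ccr4 (GRCm38.p6, minus strand) are shown beside those of Cxcr4 (minus strand), since Ccr4 was the receptor called lower and Cxcr4 had the highest log2 difference of the 9. Capitals mark CpG pairs, where DNA methylation occurs in mammals.
Ccr4 (chr9:114496545-114496794): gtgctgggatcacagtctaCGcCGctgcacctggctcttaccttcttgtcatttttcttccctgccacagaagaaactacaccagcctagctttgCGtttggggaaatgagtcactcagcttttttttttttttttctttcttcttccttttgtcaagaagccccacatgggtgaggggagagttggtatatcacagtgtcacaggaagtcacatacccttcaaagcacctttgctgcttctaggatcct
Cxcr4 (chr1:128592300-128592549): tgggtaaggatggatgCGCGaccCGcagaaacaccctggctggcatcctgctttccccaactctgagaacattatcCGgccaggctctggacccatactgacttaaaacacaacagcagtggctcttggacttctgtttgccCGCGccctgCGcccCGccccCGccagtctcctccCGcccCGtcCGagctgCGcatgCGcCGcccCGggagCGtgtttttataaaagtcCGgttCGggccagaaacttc
Ccr4 held 3 CpG pairs in these 250 bases and Cxcr4 held 19, against a median of 6 over 32851 promoters in the table. Of the 9 receptors, 7 had an entry, and Ccr7 and Cxcr5 did not. Cxcr3 and Ccr9 held 3 CpG pairs, Ccr2 and Ccr8 held 1, and the 2 starts of Ccr6 held 1 and 7. The letters TATAAA, searched on both strands with overlaps counted, occurred 2 times before Cxcr4, overlapping each other, and before no other receptor, while 12.4% of all promoters held them. The letters GATAAG, bound by the family of Gata3, occurred 1 time before Ccr8 and in 6.55% of all promoters. The RUNX motif TGTGGT occurred 1 time before Cxcr3 and in 14.0% of all promoters. The GENCODE gene of Ccr4 extends 5′ of this RefSeq start.

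Among 14 other chemokine receptors, including the atypical receptors that take up chemokines without Gi signalling, 5 passed the filter on low counts and 0 were called in edgeR, with 1 lower and 0 higher at an unadjusted p below 0.05 and 1, Cxcr6, called lower in DESeq2. Cxcr6, a receptor of tissue-resident and effector T cells, was at 7.48, 9.49, 7.23, 6.33 and 4.12 CPM in WT 1, 3, 4, 5 and 9 and at 5.65, 2.77, 3.79 and 5.28 CPM in cKO 2, 6, 7 and 8 (log2 -0.66, SE 0.25, edgeR adjusted p = 0.0923). Without WT 9, Cxcr6 passed (adjusted p = 0.0338). Ccrl2 was at 1.85 and 2.30 CPM, Ccr10 at 0.394 and 0.502 CPM, and Ackr4 at 0.331 and 0.513 CPM. The 9 receptors that did not pass the filter stayed at or below 0.504 CPM in every sample, and Ackr1 had 0 counts, where 3 counts correspond to 0.114 to 0.146 CPM.

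A cluster of receptor genes lies on chromosome 9. From 123178439 to 124647699, a window around Ccr9, Cxcr6 and Ccr2, 27 genes are annotated and 16 were tested. There Ccr9, Cxcr6 and Ccr2 had log2 differences of -1.07, -0.66 and -0.99, and 0 of these 3 passed in edgeR, with all 3 at an unadjusted p below 0.05 and called lower by DESeq2. The 2 genes of the window that passed, Lztfl1 and Gm17200, were higher in cKO. Other neighbours had lower values like the receptors without passing, among them, at an unadjusted p below 0.05, Cdcp1 (log2 -0.61), Tmem158 (-0.44), Lars2 (-0.24) and Limd1 (-0.11), while Sacm1l was at 0.15. These 5 neighbours were chosen after their values were seen. A window extended to Ccrl2 covers chromosome 9 from 110554486 to 124647699 and holds 105 tested genes, among them Ccr4, with 2 higher (Lztfl1 and Gm17200) and 12 lower, close to the 15.8% called among all genes. Besides Ccr4 the lower genes were Nradd, Nbeal2, Als2cl, Glb1, Tmppe, Gpd1l, Myd88, Acaa1a, Scn11a, Trak1 and Vipr1. The nearest to Ccr4 were Glb1 and Tmppe (log2 -0.26 and -0.20) and Gpd1l (-0.22).

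Ligand genes of the 9 receptors were low or not detected. Of 16 ligand genes, 7 had 0 counts in all samples, 3 passed the filter and 0 were called in edgeR (0 at an unadjusted p below 0.05, and 1, Ccl20, called lower in DESeq2). Ccl25, the ligand of Ccr9, was at 5.26 CPM in WT against 5.53 in cKO, and Ccl22, a ligand of Ccr4, was at 3.62 and 3.65 CPM. Ccl20 was at 0.602 CPM in WT against 0.128 in cKO, where 3 counts correspond to 0.114 to 0.146 CPM.

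Several genes that carry the receptor signal to the cytoskeleton were lower in cKO. This list and those that follow were written with earlier results of these data known. Their shares beside those of all genes therefore describe the lists and test nothing. Of 25 tested genes for G proteins, effectors and motility, 9 fell, 0 rose and the other 16 were not called by edgeR (15 lower and 0 higher at an unadjusted p below 0.05, and 11 lower and 0 higher in DESeq2), with a median log2 fold change of -0.12 against 0.0012 for all genes, of which 8.82% were called lower and 16.3% were lower at an unadjusted p below 0.05. Coro1a, the actin regulator coronin 1A, was at 1310.2, 1346, 1457, 1293 and 1473 CPM in WT 1, 3, 4, 5 and 9. In cKO 2, 6, 7 and 8 it was at 1076, 1002, 1067 and 1064 CPM, below every WT sample (log2 -0.39, SE 0.05, edgeR adjusted p = 0.000554). Pik3cg, the catalytic subunit of PI3K gamma, fell to 77.9 CPM from 114 (log2 change -0.55, SE 0.07, adjusted p = 0.000709). Tiam1, an exchange factor for Rac, fell to 72.2 CPM from 115 (log2 change -0.68, SE 0.11, adjusted p = 0.00267), and Was, the actin nucleation factor of Wiskott-Aldrich syndrome, from 136 to 114 CPM (log2 -0.26). Rac1, Rac2, Vav1, Rassf5 and Gng2 were the other genes that fell. Gnai2, the main Gi alpha chain of lymphocytes, was at 719 CPM in WT against 664 in cKO (adjusted p = 0.116). The mitochondrial share of counts also differed, with a mean of 2.38% in WT and 2.59% in cKO. It ran from 2.31% to 2.46% across WT samples and from 2.42% to 2.72% across cKO samples, so the groups overlapped. Its part in this list was not tested.

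Of 12 tested receptor kinases, arrestins and RGS proteins, 4 fell, 1 rose and 7 did not pass, with a median log2 fold change of -0.12. Among all genes 8.82% were called lower and 7.0% higher. Rgs1, which blunts chemokine responses of lymphocytes, rose from 89.1, 105, 115, 112 and 113 CPM in WT 1, 3, 4, 5 and 9 to 137, 159, 155 and 136 CPM in cKO 2, 6, 7 and 8 (log2 0.46, SE 0.08, edgeR adjusted p = 0.00347). Every cKO sample was above every WT sample. The receptor kinases Grk6 and Grk2 fell by 0.28 and 0.18, Rgs10 by 0.40 and the arrestin gene Arrb1 by 0.34.

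**Figure D5:**
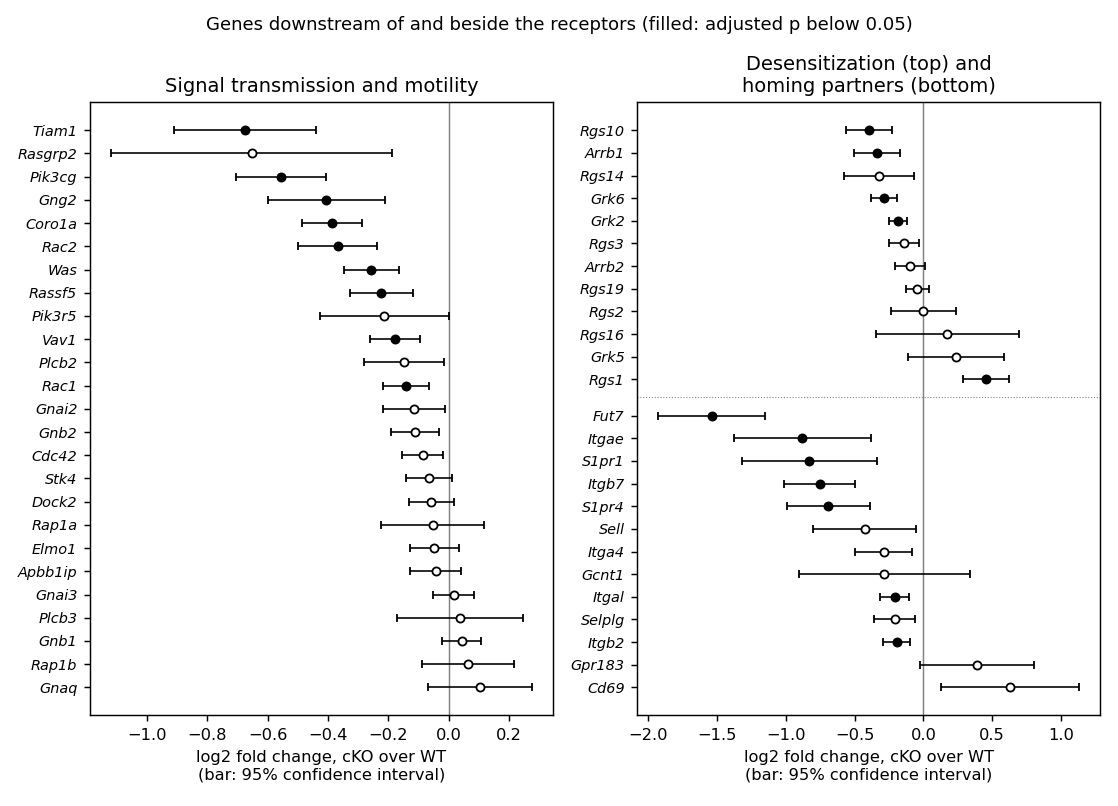
Log2 fold change of cKO over WT (horizontal axes) with 95% confidence intervals for tested genes of signal transmission and motility (left), and of desensitization and homing partners (right, above and below the dotted line). Filled points passed adjusted p 0.05: 9 lower on the left, and 4 lower and 1 higher, then 7 lower, on the right.

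Homing also needs adhesion and egress genes. Of 13 tested adhesion, egress and selectin-ligand genes, 7 fell, 0 rose and the other 6 were not called by edgeR (1 higher at an unadjusted p below 0.05, and 0 higher in DESeq2), with a median log2 fold change of -0.29. Among all genes 8.82% were called lower, a comparison that is only descriptive, since this list too was written with earlier results known. Fut7, the fucosyltransferase that completes selectin ligands on T cells, was at 6.67, 8.25, 10.8, 7.46 and 10.2 CPM in WT 1, 3, 4, 5 and 9. In cKO 2, 6, 7 and 8 it was at 3.16, 2.20, 2.98 and 3.62 CPM, below every WT sample (log2 -1.54, SE 0.18, edgeR adjusted p = 0.000484). Skin homing uses these ligands together with Ccr4. Itgb7, a chain of the gut-homing integrin, fell by 0.75 and S1pr4, a receptor for a sphingolipid, by 0.69. Itgb2, Itgal, Itgae and S1pr1 were the other genes that fell.

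Of 17 tested transcription factors linked in T cells to these receptors, 2 fell, Foxo1 and Klf2 (8.82% of all genes were called lower), 0 rose and the other 15 were not called by edgeR (2 higher at an unadjusted p below 0.05, and 0 higher in DESeq2). Both promote lymph node homing genes. Foxo1 fell to 238 CPM from 279.7 (log2 change -0.23, SE 0.04, edgeR adjusted p = 0.00623). Klf2 fell to 84.9 CPM from 145 (log2 change -0.78, SE 0.22, adjusted p = 0.0371), and without any 1 of WT 4, 5 or 9 or any 1 cKO sample it did not pass (adjusted p from 0.0549 to 0.108). Ccr7, a gene of the same homing program, was not lower in any cKO sample than in WT 1, 3, 4 or 9. Of 9 naive T cell genes other than receptors, 1 rose (Bach2, at 0.30) and 4 fell (Il7r, Klf2, S1pr1 and Foxo1), against 7.0% called higher and 8.82% called lower among all genes. The count that fell was 1 without cKO 6 or cKO 8 and 2 without WT 4 or WT 9, and 2 rose without cKO 6. Klf2 and Foxo1 are also counted among the transcription factors, and S1pr1 among the homing genes. Itgae is counted in both the homing and the regulatory T cell lists, so counts of different lists are not independent. Of 7 tested Th2 genes, 0 were called in edgeR (2 lower, Maf and Il4, and 0 higher at an unadjusted p below 0.05, and 1 lower in DESeq2).

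Over the 9 samples and among the 13201 tested genes averaging 1 CPM or more, the genes whose log2 CPM was most like that of Ccr4 were Itpr1, a calcium channel of the endoplasmic reticulum (Pearson's r = 0.972), Nrros (0.970) and Zdhhc24 (0.969). These values describe 9 samples of 2 genotypes, and within each sample all genes were scaled by the same library total. All 3 genes were lower in cKO, by -0.33, -0.36 and -0.34 on the log2 scale. Since Ccr4 was itself lower in cKO, choosing genes by likeness to it favours that direction.

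Other cells carry the same receptors, and their markers were low beside the T cell genes. Some of the sums were not low beside scarce receptors such as Ccr2 and Cxcr5. The 8 B cell markers, whose cells carry Cxcr5, Ccr6, Ccr7 and Cxcr4, summed to between 4.25 and 8.68 CPM in WT and between 4.70 and 6.66 CPM in cKO, led by Fcer2a and Cd79b. Of 7 tested, 1 fell, Cd79b (1.72 to 0.911 CPM). The 7 myeloid markers, whose cells carry Ccr2, summed to 16.2 to 20.6 CPM in WT and 17.9 to 21.6 CPM in cKO. Most of that was Csf1r (14.3 and 15.5 CPM) and Cd68, and Lyz2 was at 0.0166 and 0.0464 CPM. Of 3 tested, 1 fell, Itgam (1.34 to 0.373 CPM), chosen after its values were seen. The 7 dendritic cell markers summed to at most 3.75 CPM, with Clec9a and Cd209a at 0 in all samples and Zbtb46 and Xcr1 the highest. The 4 gamma-delta T cell markers with an ID summed to 3.45 to 4.12 CPM in WT and 3.12 to 6.12 CPM in cKO, led by Tcrg-C2 and Tcrg-C1. The 5 natural killer markers summed to at most 2.91 CPM and the 5 neutrophil markers to at most 0.116 CPM, with S100a8, S100a9 and Ly6g at 0 in all samples. The 7 stromal markers summed to 96.8 to 119 CPM in WT and 84.3 to 106 CPM in cKO, nearly all of it Pecam1, which T cells also express, with Ccl21a at 0 in all samples. The CD8 markers Cd8b1 and Cd8a summed to 11.9 to 15.1 CPM in WT and 15.1 to 19.1 CPM in cKO, without overlap. Cd8b1 rose by 0.28 (edgeR adjusted p = 0.0296), a call lost in 7 of 18 alternatives, and Cd8a was not called. The part of these cells in the receptor differences was not tested.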

How the data were processed

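The authors deposited 1 table of whole-number read counts per Ensembl gene for 9 libraries. Per the labels' protocols, these were stranded, mRNA-enriched libraries, and per the submitters' processing notes they were made with bcl2fastq 2.17 and build mm10. Which aligner, counter and annotation were used is not stated in the sources at hand. Symbols and lengths came from GENCODE M21. Genes were filtered with filterByExpr, scaled by TMM and tested with edgeR 4.0.16 (quasi-likelihood, R 4.3.3, Benjamini-Hochberg over 14693 genes, threshold 0.05). DESeq2 1.42.0, limma 3.58.1 (voom), sva 3.50.0, other scalings and filters, and leaving out each sample were alternatives. Levels are CPM, and their log2 (prior count 2) was used for likeness. The test was also run on simulated counts of independent samples with fewer changed genes than were called here. That run therefore does not vouch for these calls. Promoter sequences are from RefSeq (GRCm38.p6).

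The members and gene lists were chosen with earlier results of these data known. Named genes were all 9 receptors, tested genes of the other receptors, the leading called genes of each list (by adjusted p), lineage factors, called genes of the chromosome 9 window, the 2 most abundant tested genes of each marker list, and the 3 genes most like Ccr4; others are named where a count is spelled out. Nothing in the labels says that samples came from separate mice, so p-values measure only sample-to-sample spread, part of which may be technical. Replicates of a group differed beyond counting noise in all 16 pairs. Some tested genes of these lists are not reported here.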

Additional observations from a re-analysis of the deposited data

Results flagged for a closer look

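Ccr6 in WT 1 was at 14.1 CPM, and the next WT sample was at 8.88 CPM. The gap is 0.794 of the whole range of the 5 WT samples, above Dixon's critical value of 0.71. Among 18 groups examined (9 receptors in each genotype), chance flags about 1 in 20. Without WT 1 the log2 difference of Ccr6 was 0.51 (edgeR adjusted p = 0.163).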

How the results depend on the processing

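Ccr4 stayed lower and past the threshold in all 18 alternatives, with log2 fold changes from -0.97 to -0.76. With no count filter, and with DESeq2, 3 receptors were lower and 1 was higher, and 2 were lower with limma-voom, with sample quality weights and with 1 surrogate variable. Leaving out each sample gave 1 to 2 receptors lower (2 without WT 1, WT 9, cKO 2 or cKO 8) and 0 to 2 higher (2 without WT 5, 1 without cKO 7). No paired analysis was possible because the labels give no pairing between samples of the 2 groups. Upper-quartile scaling moved the share of calls over all genes that were higher from 44.2% to 54.2%. Depth limits Ccr9 most, with 6 to 36 counts a sample. The cause of the changes in this section was not tested.

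Signs turned for differences near 0. Leaving out each sample moved Ccr8 from -0.18 (without WT 4) to 0.18 (without WT 1), and it was 0.080 without cKO 7. Over the same fits Cxcr5 ran from -0.13 to 0.26, Ccl22 from -0.17 to 0.14, Foxp3 from -0.18 to 0.11, Bcl6 from -0.041 to 0.12, Fcer2a from -0.21 to 0.27 and Tcrg-C1 from -0.33 to 0.10. With 1 surrogate variable Cxcr5 was -0.098, Ccl22 -0.055, Foxp3 0.10 and Fcer2a -0.031. Foxp3 was 0.00034 with upper-quartile scaling and 0.059 with quality weights.

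Counts called in the other lists also moved. With 1 surrogate variable, 1 regulator and 1 Th1 gene were higher, 4 regulators and 2 Th2 genes lower, and 2 naive genes higher. With no count filter, 4 regulators were lower, 1 homing partner higher and 1 Th2 gene lower. DESeq2 called 1 other receptor, 1 ligand and 1 Th2 gene lower. Robust quasi-likelihood left 1 regulator, 1 Th1 gene and 2 naive genes lower, and limma-voom 1 regulator. Quality weights gave 1 homing partner higher, 1 Th2 gene lower and 2 naive genes higher, and the filter of at least 1 CPM in 4 samples left 1 Th17 gene lower. Leaving out each sample gave 0 to 1 other receptors lower, 0 to 1 regulators higher and 1 to 2 lower, and 0 to 2 homing partners higher. It gave 0 to 1 Th1 genes higher and 1 to 3 lower, 0 to 2 Th2 genes lower, 1 to 3 Th17 genes lower and 0 to 1 Tfh genes higher. It gave 1 to 2 naive genes higher and 1 to 5 lower, and 1 to 5 genes of the chromosome 9 window higher (5 without cKO 2, 1 without cKO 6 or cKO 8). The window without Ccrl2, chosen after the coordinates were seen, held 0 lower genes in edgeR, with 7 lower at an unadjusted p below 0.05, against 12 in the wide window.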
